A study of Rattus norvegicus with 3 samples.

Results

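Collagen chain genes, the genes named Col followed by a type number, the letter a and a chain number, were read in diabetic rat skin wounds by single-cell RNA sequencing. Of the 32883 features listed, 42 carried such a name. They were sorted by known structure into 10 fibrillar, 8 basement membrane, 5 beaded filament, 9 FACIT (fibril-associated collagens with interrupted triple helices), 3 network-forming, 1 anchoring fibril, 4 transmembrane and 2 other genes. Col1a2 and Col6a3, the partner chains of type I and type VI collagen, were not analysed here because no feature carried those symbols.

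The wounds were made in wild type male SD rats given streptozotocin at 65 mg/kg, a toxin of the insulin-producing beta cells, at an age of 7 to 9 weeks. Animals with blood glucose over 16.7 mM received full-thickness skin defects of 15 mm diameter, and the tissue came from rats of 8 to 10 weeks after 7 days. The 3 conditions, each with 1 library, were: an untreated wound, a wound under a hyaluronic acid hydrogel ("hydrogel"), and a wound under a CO-releasing hyaluronic acid hydrogel ("CO hydrogel"). All animals were diabetic, no unwounded skin was among the samples, and the number of rats behind each library is not given in the labels. With 1 library per condition there was no replicate, so no difference below was tested. The intervals given are exact 95% intervals that cover counting error only.

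A collagen molecule is a triple helix of chains that may be encoded by different genes. Fibroblasts of the dermis make the fibril-forming types I, III and V, which fill a healing wound as granulation tissue. Type IV collagen forms the sheet-like network of basement membranes beneath epithelium and around vessels, with types XV and XVIII as associated members, while types VII and XVII fasten the epidermis to that membrane.

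The files held 12883, 15442 and 15376 cell barcodes for the untreated, hydrogel and CO hydrogel libraries, against about 8000 cells per sample that the labels anticipated. After filters and removal of likely doublets, 10820, 12700 and 13143 cells remained, with median depths of 2640, 5620 and 5832 unique molecular identifiers (UMIs, each 1 captured RNA molecule). Between 364 and 600 barcodes were shared by a pair of libraries. Among kept cells with a shared barcode, the 2 cells fell in the same class in 77.7% to 81.2% of pairs, against 11% to 19.4% of all cell pairs. Gene calls in the classes compared that changed when these cells were left out are given beside the value they touch. Cells were clustered with all 42 collagen genes left out of the variable genes, and classes were named from marker lists. Keratinocyte-like cells with their keratins were present, as the skin label requires, and 1269, 1713 and 4970 cells were fibroblast-like. Of their clusters, 3 held most cells: cluster 6 (led by Tnn, Prss35 and Col12a1), cluster 9 (Cxcl13, Sfrp4 and Angptl1) and cluster 11 (Gap43, Tnfrsf11b and Pla2g2a). Their mix differed between libraries. Cluster 11 held 49.6% of the fibroblast-like cells of the untreated wound, but cluster 9 held 50.9% with hydrogel and 60.0% with CO hydrogel, and cluster 6 held 22.8%, 43.3% and 20.6%. Class-wide values below therefore compare different mixes, and values within clusters are given beside those they touch.

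The type IV genes lie as head-to-head pairs, transcribed away from each other. Of the 3 pairs, only Col4a1 with Col4a2 could be compared as a pair below. In the second, Col4a3 and Col4a4, Col4a3 had only 37, 37 and 40 UMIs over the kept cells of the untreated, hydrogel and CO hydrogel libraries. That was too few for a ratio between wounds. In the third, Col4a6 and Col4a5, whose starts are 1414 bases apart, Col4a6 had only 24 UMIs over all kept cells against 2970 for Col4a5, so it gave no ratio between wounds. RefSeq promoter windows of assembly GRCr8 matched 33 of the 42 genes. The 76 bases between the Col4a2 start (minus strand) and the Col4a1 start (plus strand) are shown because they lie before both starts, as chr16:84885521-84885596 on the plus strand. For the second pair, whose starts are 412 bases apart, the 150 bases before each start are shown, as chr9:91323840-91323989 on the plus strand for Col4a3 and chr9:91323578-91323727 on the minus strand for Col4a4. Capitals mark a GC box, GGGCGG or its complement CCGCCC.
interval between Col4a2 and Col4a1: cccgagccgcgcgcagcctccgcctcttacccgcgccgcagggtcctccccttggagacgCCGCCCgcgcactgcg
Col4a3: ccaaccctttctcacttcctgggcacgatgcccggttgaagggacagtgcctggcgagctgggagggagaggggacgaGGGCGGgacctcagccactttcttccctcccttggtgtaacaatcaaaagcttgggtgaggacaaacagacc
Col4a4: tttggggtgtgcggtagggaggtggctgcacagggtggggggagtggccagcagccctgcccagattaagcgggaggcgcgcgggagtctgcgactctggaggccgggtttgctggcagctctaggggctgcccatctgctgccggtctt
The first 2 sequences each held 1 GC box, and none of the 3 held a CCAAT box (CCAAT or ATTGG) or a TATA box (TATAAA or TTTATA). Of all 33469 promoter windows cut to 76 bases, 18.1% held a GC box, 13.0% a CCAAT box and 4.61% a TATA box, and at 150 bases the shares were 26.0%, 23.5% and 8.00%. The Col4a2 to Col4a1 interval was 78.9% G or C, above 95.1% of windows of its length. A match is a description of these letters and says nothing of whether a factor binds.

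Most collagen RNA was held by fibroblast-like cells. Collagen UMIs made up 7.06%, 6.28% and 6.86% of all UMIs of fibroblast-like cells in the untreated, hydrogel and CO hydrogel wounds. These cells held 79.6%, 78.7% and 86.1% of each library's collagen UMIs while they were 11.7%, 13.5% and 37.8% of its cells. Cell by cell, the median collagen share was 6.55%, 5.52% and 6.05%, with the middle 80% of cells lying between 3.45% and 10.9%, 2.80% and 10.1%, and 3.13% and 10.7%. The cells of the 3 wounds thus overlapped widely, and the highest median was that of the untreated wound. Without cells of a shared barcode the class shares were 6.97%, 6.26% and 6.87%. For the library as a whole, collagens were 2.76%, 2.01% and 3.97% of UMIs, an order that differs from that within fibroblast-like cells.

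**Figure D1:**
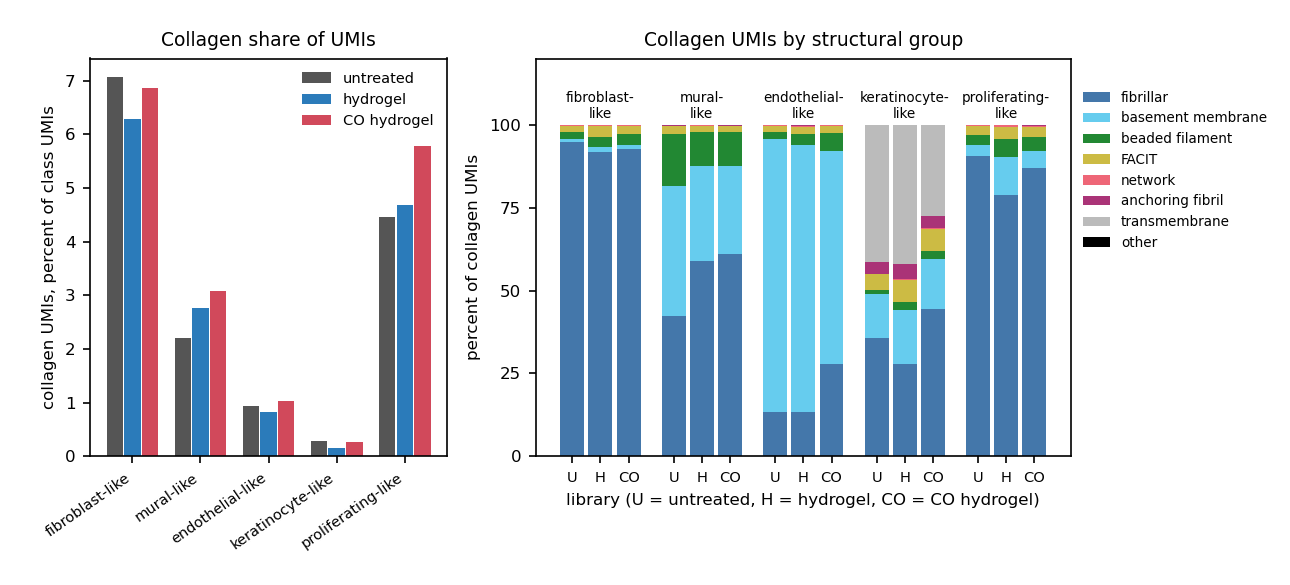
Left, collagen UMIs as a percentage of all UMIs of a cell class, 1 bar per library. Right, how the collagen UMIs of each class divide among the structural groups (U untreated, H hydrogel, CO CO hydrogel), each bar summing to 100%. Fibroblast-like cells have the tallest bars at left, and the basement membrane group fills most of the endothelial-like bars at right.

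The kind of collagen differed by class more than by wound. Fibrillar genes supplied 95.0%, 91.7% and 92.8% of the collagen UMIs of fibroblast-like cells. In mural-like cells, which are the pericytes and smooth muscle of vessel walls, collagens were 2.21%, 2.77% and 3.07% of UMIs, of which 42.3%, 58.8% and 60.9% were fibrillar and 39.2%, 28.8% and 26.8% basement membrane. Endothelial-like cells, the vessel lining, gave 0.94%, 0.831% and 1.02%, with basement membrane genes at 82.4%, 80.6% and 64.3% of their collagen. In keratinocyte-like cells the collagen share was 0.286%, 0.153% and 0.257%, and transmembrane genes, almost all Col17a1, were 41.3%, 42.0% and 27.4% of it. Proliferating-like cells, a class set by cell cycle genes, reached 4.45%, 4.68% and 5.78%.

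Of the 42 genes, 28 had at least 100 UMIs over the kept cells and 15 had at least 10000. The other 14 were under 100 UMIs, and 3 of these, the cartilage chains Col2a1 and Col10a1 and the transmembrane Col23a1, had no UMI at all. Among the 25 genes with at least 20 UMIs in their top class in every library, 17 had the same top class in all 3. The fibroblast-like class led for Col1a1, Col3a1, Col5a2, Col6a5, Col8a2, Col14a1 and Col16a1. Mural-like cells led for Col4a1, Col4a2, Col4a3, Col4a4, Col6a1, Col6a2 and Col18a1. Col13a1 led in endothelial-like, Col17a1 in keratinocyte-like and Col5a3 in proliferating-like cells.

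**Figure D2:**
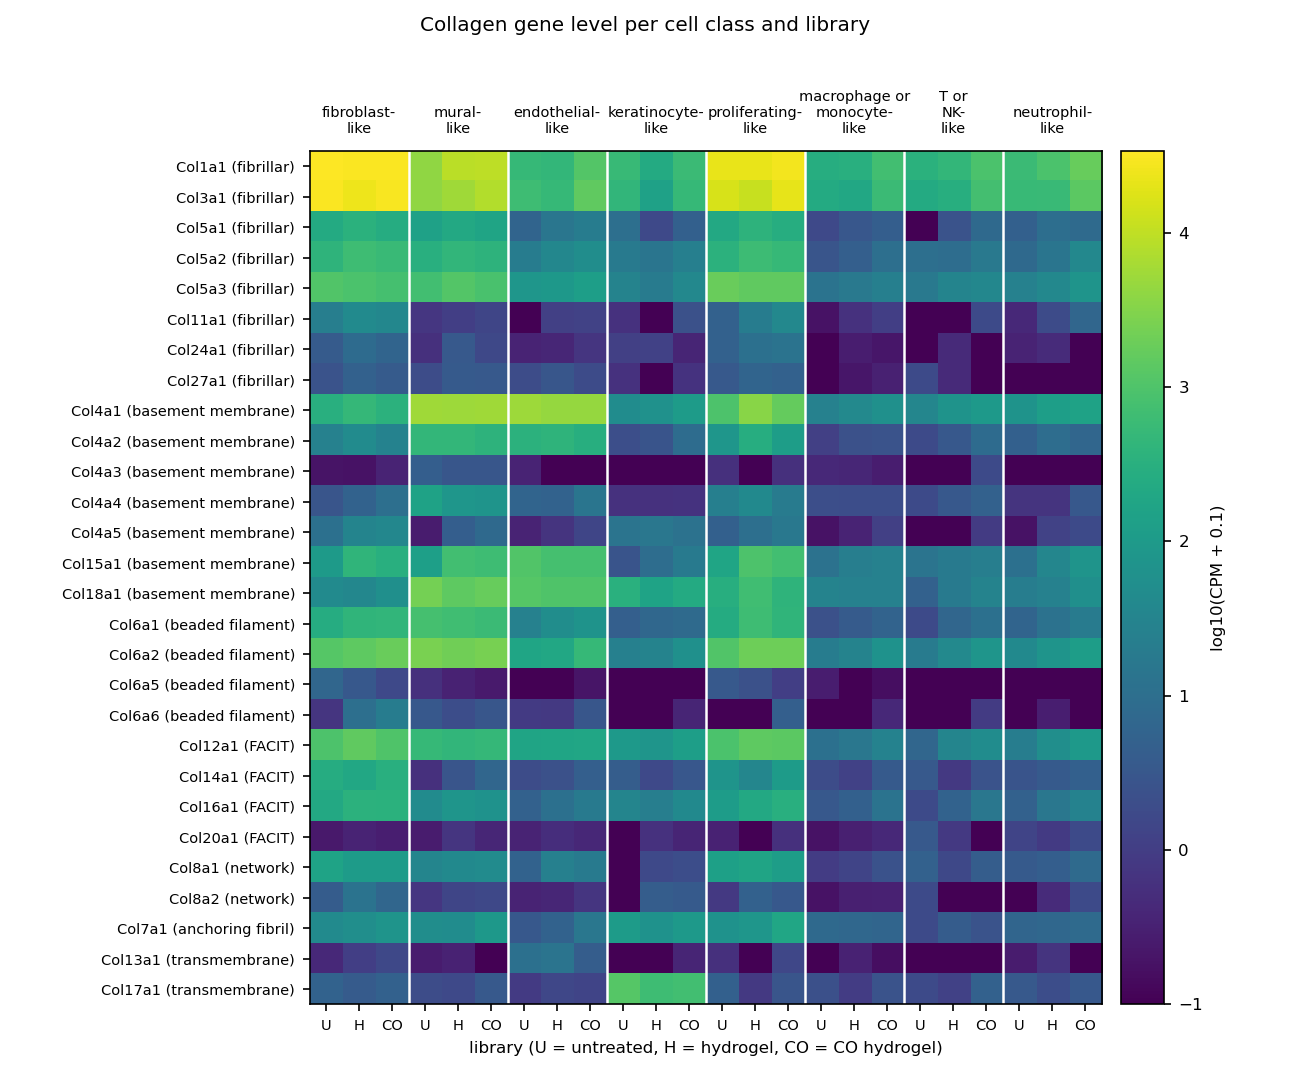
Level of the 28 collagen genes with at least 100 UMIs (rows, with their structural group) in 8 cell classes of each library (columns, U untreated, H hydrogel, CO CO hydrogel), as log10 of CPM plus 0.1. The brightest cells are the fibrillar genes in fibroblast-like and proliferating-like cells, the basement membrane genes in mural-like and endothelial-like cells, and Col17a1 in keratinocyte-like cells.

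Levels below are counts per 1000000 UMIs of the class (CPM). The 3' chemistry gives 1 tag per RNA molecule whatever its length, so levels were not scaled by length, but how well the annotation covers a gene's 3' end bears on its level, and levels of different genes are compared with that limit. In fibroblast-like cells the alpha 1 chain of type I collagen, Col1a1, stood at 33702, 31225 and 31780 CPM in the untreated, hydrogel and CO hydrogel wounds. Col3a1, the single chain of the type III fibrils of early scar, stood at 31588, 24393 and 30279 CPM. These 2 genes exceeded every other collagen gene in each wound, and neither differed by as much as 1.5-fold between wounds. The largest of their ratios was that of Col3a1 in hydrogel over untreated, a log2 ratio of -0.37 (-0.38 to -0.37).

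The minor fibrillar chains, which co-assemble with types I and III and limit fibril width, were lower by more than an order of magnitude. Col5a3 was measured at 1069, 925 and 771 CPM, Col5a2 at 391, 633 and 570 CPM, and Col5a1 at 235, 334 and 269 CPM. Col5a2 and Col5a1 were thus lowest, and Col5a3 highest, in the untreated wound. Col11a1, a chain of a type that is abundant in cartilage, was measured at 23.5, 44.3 and 35.8 CPM. The low-level fibrillar genes Col24a1, at 3.83, 8.33 and 5.92 CPM, and Col27a1, at 2.54, 5.21 and 3.68 CPM, were highest under hydrogel.

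Type VI collagen forms beaded filaments around cells. Its alpha 2 chain Col6a2 was at 1162, 1456 and 1849 CPM and its alpha 1 chain Col6a1 at 265, 423 and 428 CPM, both lowest in the untreated wound. Among the FACIT genes, whose products sit on fibril surfaces, Col12a1 was measured at 944, 1524 and 991 CPM, Col16a1 at 213, 364 and 339 CPM, and Col14a1 at 260, 210 and 304 CPM. Col12a1 was highest and Col14a1 lowest under hydrogel. The network-forming Col8a1 was at 161, 108 and 108 CPM, and the anchoring fibril gene Col7a1 at 44.2, 52.6 and 70.9 CPM. Of the basement membrane genes, Col4a1 stood at 302, 484 and 356 CPM and Col15a1 at 103, 412 and 310 CPM.

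To compare the wounds, the 25 collagen genes of fibroblast-like cells whose UMIs in the 2 libraries summed to 100 or more were taken, and a gene was counted where its CPM differed at least 2-fold. For CO hydrogel against hydrogel, 0 of 25 were at least 2-fold higher, against 1.97% of all genes, and 0 were at least 2-fold lower, against 1.75%. The 4 genes at the edge were Col6a6 and Col4a4, with log2 ratios of 1.0 (0.80 to 1.21) and 0.99 (0.70 to 1.29), and Col6a5 and Col8a2, with -1.0 (-1.48 to -0.51) and -0.99 (-1.23 to -0.76). Col6a6 passed 2-fold, at 1.02, once cells with a shared barcode were left out. The median log2 ratio over the 25 genes was -0.10, against -0.01 over all genes. The gel wounds thus differed by less than 2-fold in each of the 25 collagen genes measured, and in these 4 only just.

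Against the untreated wound, both gels showed more differences. With CO hydrogel, Col4a4, Col4a5, Col6a6 and Col15a1 were at least 2-fold higher, 4 of 25 where 6.18% of all genes were, and Col6a5 was at least 2-fold lower, 1 of 25 where 2.68% were. With hydrogel, Col4a5, Col6a6, Col8a2, Col15a1, Col24a1 and Col27a1 were at least 2-fold higher, 6 of 25 where 4.85% of all genes were, and Col6a5 was again lower, 1 of 25 where 2.32% were. The median log2 ratio was 0.53 with CO hydrogel and 0.68 with hydrogel, against 0.14 over all genes in each. The 2 comparisons share the untreated library. Col6a6, Col8a2, Col24a1 and Col27a1 met the minimum of 100 UMIs for hydrogel against untreated only through the hydrogel library. For CO hydrogel against untreated, Col4a4 and Col6a6 met it only through the CO hydrogel library. In both comparisons Col6a5 met it only through the untreated library. A difference was thus built into their being measured, which bears on the counts. The 5 genes counted with CO hydrogel stayed past 2-fold under every whole-class alternative that measured them, but several of those with hydrogel did not. With the clusters weighted to one mix in every library, the hydrogel ratios of Col15a1, Col8a2, Col27a1 and Col24a1 were 0.98, 0.68, 0.50 and 0.13, all under 2-fold, while Col4a4 passed it, so that 3 genes were at least 2-fold higher. The medians were then 0.21 with CO hydrogel and 0.13 with hydrogel. Col27a1 also fell short, at 0.96, without cells of a shared barcode, where Col4a4 came to 1.00, and at 0.85 as a mean of CPM over cells, where Col6a5 came to -0.88. With each library clustered by itself, 11 and 12 genes were at least 2-fold higher and none was 2-fold lower. Scaling by trimmed means of M values (TMM, a normalization that discounts extreme genes) lowered all these ratios by 0.13 and 0.16. With it Col24a1 and Col27a1 came to 0.96 and 0.88 with hydrogel, under 2-fold, and Col4a2 and Col12a1, whose ratios with CO hydrogel were 0.02 and 0.07, turned to below 0. Markers moved beside these differences in the class: the 12 mural markers, all detected in each library, summed to 292, 658 and 310 CPM in fibroblast-like cells and the 10 fibroblast markers to 23023, 16236 and 22361 CPM. Hydrogel was highest in the first and lowest in the second, and their part in the ratios was not tested.

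**Figure D3:**
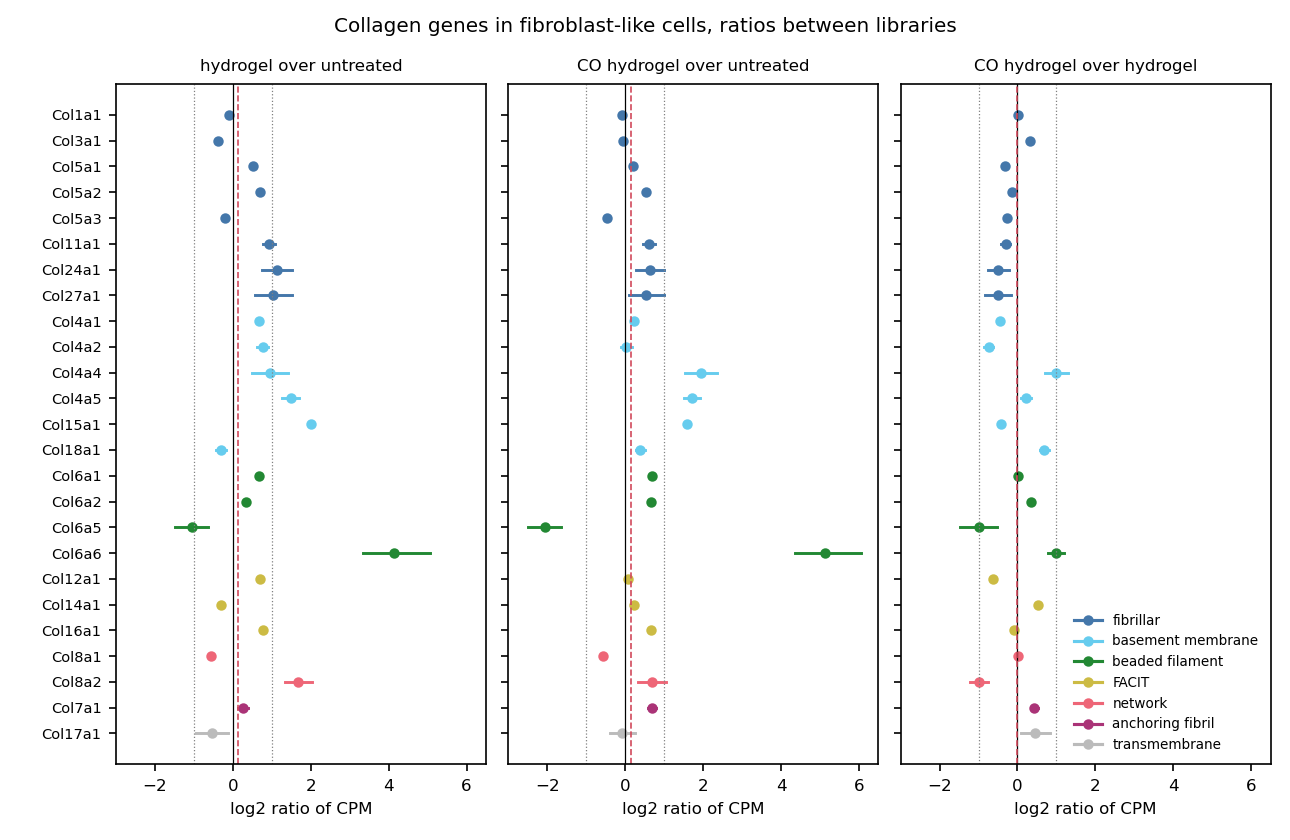
Log2 ratio of CPM in fibroblast-like cells for each of the 25 collagen genes measured, by pair of libraries, with exact 95% counting intervals (horizontal lines, often smaller than the point). Dotted lines mark 2-fold, the dashed red line the median of all genes. In the right panel every point lies within the dotted lines, and in the other panels Col6a6 lies farthest to the right.

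The Col15a1 gene, whose product links basement membranes to underlying fibrils, showed the most molecules behind such a difference, with 2229, 9640 and 14479 UMIs in fibroblast-like cells. It was 4.0-fold higher with hydrogel (log2 ratio 2.0, 1.93 to 2.07) and 3.01-fold higher with CO hydrogel (1.59, 1.52 to 1.65) than untreated. After thinning each cell to 1000 UMIs, 6.92%, 20.5% and 15.9% of fibroblast-like cells held a Col15a1 UMI, against 1.07%, 3.54% and 5.12% of neutrophil-like cells, which are not known to make this collagen and whose UMIs serve as the background. Before thinning the shares were 31.9%, 55.7% and 45.2% against 2.14%, 6.02% and 8.91%, at median depths of 16428, 13567 and 9200 UMIs against 1954, 1807 and 1310. The share in fibroblast-like cells was above the background share in every library.

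The position of Col15a1 within the class was uneven. Cluster 6 held it at 363, 813 and 1088 CPM. Cluster 9 gave 64.1, 58.6 and 82.1 CPM, and the lowest levels were those of cluster 11, with 6.71, 17.7 and 25.6 CPM. The cluster 11 levels lay below the Col15a1 level of neutrophil-like cells in every library. How much of them is background was not tested. Hydrogel exceeded untreated by log2 ratios of 1.16 in cluster 6 and 1.4 in cluster 11 but gave -0.13 in cluster 9, and CO hydrogel exceeded it by 1.58, 1.93 and 0.36. With clusters weighted to the same mix in every library, the hydrogel ratio was 0.98, just under 2-fold. CO hydrogel over untreated stayed past 2-fold under all 12 alternative settings of the whole class.

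The type IV chains Col4a5 and Col4a4, best known from the filtration membrane of the kidney, were also higher in the gel wounds. Col4a5 was at 10.9, 30.5 and 35.8 CPM, a log2 ratio of 1.48 (1.27 to 1.70) for hydrogel and 1.71 (1.51 to 1.91) for CO hydrogel over untreated. This held past 2-fold within cluster 9 (1.58 and 2.07) and cluster 11 (1.70 and 2.24), whereas in cluster 6 the ratios were 1.16 and 0.64. Col4a4 was at 2.72, 5.25 and 10.4 CPM, from 59, 123 and 488 UMIs, which gave 1.94 (1.55 to 2.35) for CO hydrogel over untreated. Cluster 10, which had 3, 7 and 326 cells, held Col4a4 at 82.1 CPM in the CO hydrogel library, and in cluster 9 the CO hydrogel ratio was 1.45.

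In type VI collagen the 2 rarely expressed chains Col6a5 and Col6a6, which can stand in for the alpha 3 chain, went opposite ways. Col6a6 had 13, 246 and 982 UMIs, or 0.60, 10.5 and 21.0 CPM, a log2 ratio of 4.13 (3.33 to 5.06) for hydrogel and 5.13 (4.35 to 6.04) for CO hydrogel. It met the minimum of 100 UMIs only through the gel libraries, so a difference was built into its being measured. Within cluster 9 the ratios were 3.55 and 4.11, from 1.81 CPM in the untreated wound to 21.3 and 31.2. Col6a5 had 143, 74 and 74 UMIs, or 6.60, 3.16 and 1.58 CPM, and was lower by log2 ratios of -1.06 (-1.49 to -0.65) and -2.06 (-2.49 to -1.65). In the untreated wound its UMIs lay mostly in cluster 6. The Col6a5 level of cluster 6 was 25.4, 3.53 and 2.16 CPM, with ratios of -2.84 and -3.55. When each library was clustered by itself, 276 of the 289 untreated cells of cluster 6 fell in the proliferating-like class. The proliferating-like class of the joint clustering, which did not hold those cells, had Col6a5 at 3.42 CPM in the untreated wound.

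Cluster 6 carried most of several other genes. Its Col12a1 level was 2994, 2888 and 3135 CPM, against 660, 331 and 392 CPM in cluster 9 and 179, 121 and 240 CPM in cluster 11. For the class as a whole Col12a1 was higher with hydrogel by a log2 ratio of 0.69 (0.67 to 0.72), yet within clusters 6, 9 and 11 the ratios were -0.05, -1.0 and -0.57. Cluster 6 was 43.3% of the fibroblast-like cells of the hydrogel wound and 22.8% of the untreated, and its part in the class-wide ratio was not tested. Col7a1, whose type VII product anchors the epidermis, was at 175, 107 and 292 CPM in cluster 6 and at most 6.10 CPM in clusters 9 and 11. In cluster 6, CO hydrogel stood above hydrogel for Col7a1 by a log2 ratio of 1.44.

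Other collagen genes differed by cluster in another way. Col1a1 was highest in cluster 6, at 41748, 39434 and 43984 CPM, and lowest in cluster 11, at 29837, 23216 and 25004 CPM. Col3a1 ran the other way in the untreated wound, at 19341 CPM in cluster 6 and 36048 CPM in cluster 11, while in the CO hydrogel wound the 2 clusters were close, at 28416 and 29123 CPM. Col8a1, a network-forming chain found around vessels and in the cornea, was at 158, 52.3 and 9.76 CPM in cluster 11, a log2 ratio of -4.02 for CO hydrogel over untreated. In cluster 6 its levels were 139, 101 and 146 CPM, so CO hydrogel was lowest in cluster 11 but not in cluster 6.

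**Figure D4:**
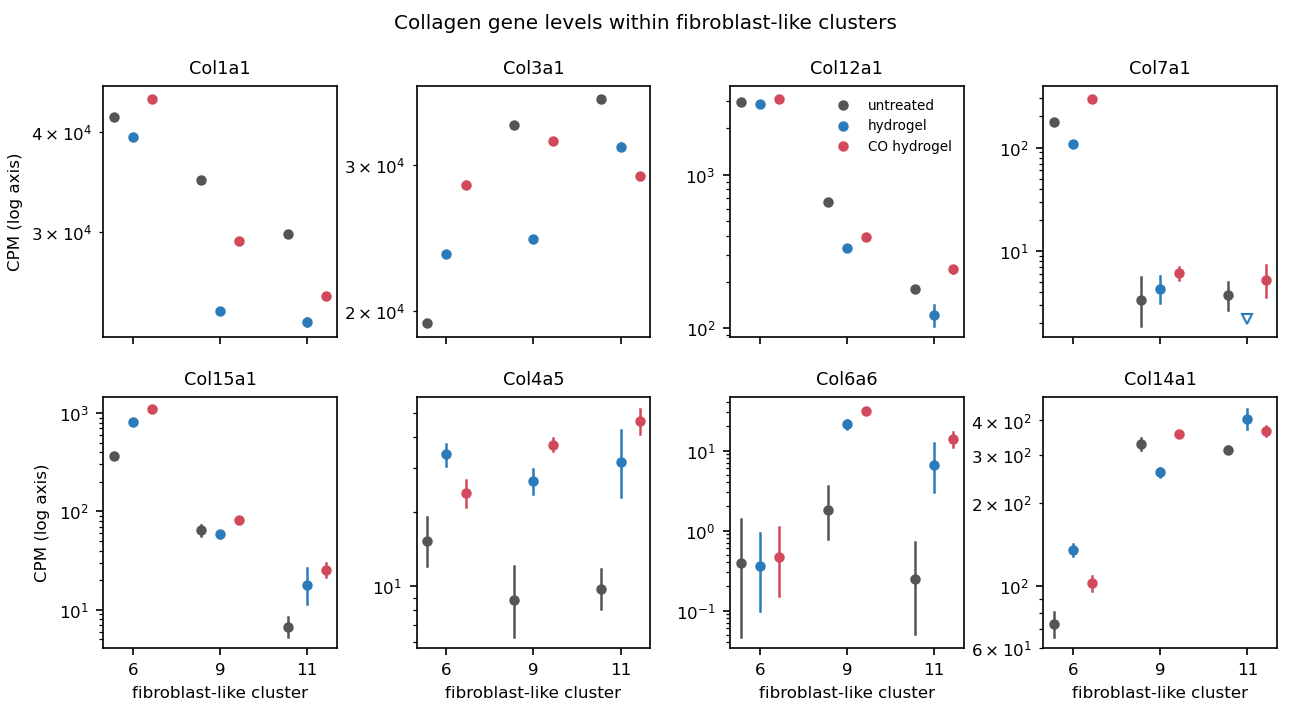
CPM (log axis, its range set per panel) of 8 collagen genes in fibroblast-like clusters 6, 9 and 11, with 1 point per library and exact 95% counting intervals. An open triangle marks the level that 3 counts would give where no UMI was seen, as for Col7a1 in cluster 11 with hydrogel. Col12a1, Col7a1 and Col15a1 are highest in cluster 6 in every library, and Col6a6 is above 6 CPM only in the gel libraries of clusters 9 and 11.

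Mural-like cells, of which 98.0%, 91.9% and 90.8% belonged to the Rgs5-led cluster 3, held Col4a1 at 5595, 5237 and 5407 CPM. Col6a2 was at 2659, 2124 and 2504 CPM and Col18a1, the source of endostatin, at 2316, 1458 and 1719 CPM. Col1a1 was at 3975, 9040 and 9639 CPM and Col3a1 at 4173, 5415 and 7638 CPM. Col4a1 and Col6a2 differed little between wounds, while Col18a1 was highest and the fibrillar pair lowest in the untreated wound.

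Of 16 collagen genes measured in mural-like cells, for CO hydrogel against hydrogel 0 were at least 2-fold higher (0.487% of all genes) and 0 lower (0.75%). With CO hydrogel against untreated, Col1a1 and Col15a1 were at least 2-fold higher (2.57% of all genes) and Col4a4 lower (0.897%). With hydrogel against untreated the same 2 genes, Col1a1 and Col15a1, were higher (2.37%) and 0 were lower (0.566%). Median log2 ratios of the 16 genes were -0.03, 0.23 and 0.19 for these 3 pairs, against 0.00, 0.08 and 0.07 over all genes. Col15a1 was at 134, 730 and 648 CPM, from 825, 5926 and 4463 UMIs, with log2 ratios of 2.44 (2.34 to 2.55) for hydrogel and 2.27 (2.16 to 2.38) for CO hydrogel. In cluster 3 alone these ratios were 2.54 and 2.42. After thinning to 1000 UMIs, 6.83%, 21.0% and 17.9% of mural-like cells held a Col15a1 UMI, and 24.8%, 39.2% and 28.6% before thinning.

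Col1a1 in mural-like cells gave log2 ratios of 1.19 (1.16 to 1.21) and 1.28 (1.26 to 1.30), but when CPM was averaged per cell they were 0.84 and 0.89. The summed level of the 10 fibroblast markers moved beside it, at 811, 1083 and 1918 CPM in mural-like cells, with all 10 detected in the gel libraries and Mfap4 at 0 in the untreated one. Its part in the result was not tested. Col4a4 went the other way, at 150, 79.2 and 73.9 CPM, with -1.02 (-1.18 to -0.86) for CO hydrogel over untreated. That ratio was just under 2-fold with no doublet removal (-0.97) and with each library clustered by itself (-0.98). This is the class in which Col4a4 was highest, and its head-to-head neighbour Col4a3 was at 4.39, 2.95 and 2.90 CPM there.

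In endothelial-like cells, Col4a1 was at 5134, 4511 and 4482 CPM, Col18a1 at 1152, 999 and 991 CPM, and Col15a1 at 1089, 778 and 785 CPM. These 3 basement membrane genes were all highest in the untreated wound and alike in the gel wounds. Col15a1 thus ran opposite to its course in fibroblast-like and mural-like cells, with a log2 ratio of -0.49 (-0.54 to -0.43) for hydrogel and -0.47 (-0.53 to -0.42) for CO hydrogel over untreated. The transmembrane Col13a1, found at cell contacts, was at 11.1, 13.6 and 4.22 CPM, from 42, 95 and 41 UMIs.

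For CO hydrogel against hydrogel, 5 of 17 collagen genes measured in endothelial-like cells were at least 2-fold higher (Col1a1, Col3a1, Col4a4, Col6a2 and Col7a1), where 1.97% of all genes were, and Col13a1 alone was lower (0.73%), with a log2 ratio of -1.69 (-2.25 to -1.15) that was -0.62, under 2-fold, as a mean of CPM over cells. With CO hydrogel against untreated, 10 of 16 were higher (5.56%): those 5 with Col5a1, Col5a2, Col6a1, Col8a1 and Col16a1, and 0 were lower (1.01%). With hydrogel against untreated, Col5a1 and Col8a1 of 14 were higher (2.53%) and 0 lower (0.507%). Without cells of a shared barcode these counts of higher genes were 5, 11 and 4. The medians were 0.49, 1.21 and 0.15, against -0.04, 0.05 and 0.10 over all genes, and 0.49, 1.68 and 0.41 without those cells. Untreated cells held only 0.0372 (Col7a1), 0.0588 (Col16a1), 0.0619 (Col8a1) and 0.0712 (Col4a4 and Col5a1, each) UMIs per cell. These 5, and Col5a2 at 0.251 UMIs per untreated cell, met the minimum of UMIs for CO hydrogel against untreated only through the CO hydrogel library. So did Col4a4 and Col7a1 for CO hydrogel against hydrogel. Col5a1 and Col8a1 met it for hydrogel against untreated only through hydrogel. A difference was thus built into their being measured, which bears on the counts.

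The mix of the endothelial-like class differed between libraries. Cluster 19, whose second-best marker list was that of mural cells, was 21 of 323, 118 of 881 and 293 of 1391 cells, and cluster 17 was the rest. With the 2 clusters weighted to one mix, 5 of the 10 genes counted for CO hydrogel over untreated were under 2-fold: Col3a1 at 0.85, Col6a2 at 0.54, Col5a2 at 0.41, Col6a1 at 0.31 and Col4a4 at 0.21. The median then was 0.36. So weighted, Col5a1 in hydrogel over untreated came to 0.65 and Col6a2 in CO hydrogel over hydrogel to 0.98. In cluster 19 alone 0 collagen genes passed 2-fold in any pair, although its untreated cells were few. In cluster 17 alone, 7 of 15 were higher and 1 lower for CO hydrogel against hydrogel, 7 of 13 higher and 0 lower for CO hydrogel against untreated, and 1 of 11 higher and 1 lower for hydrogel against untreated. That lower gene was Col5a3, at 24.9 against 54.2 CPM, a log2 ratio of -1.12. No share over all genes is given for single clusters, so the counts in clusters 17 and 19 are not read as unusual. For the class as a whole and CO hydrogel against hydrogel, 70.6% of the measured genes lay above 0, and 82.4% with TMM scaling, as Col4a1 and Col18a1 moved from just below 0 to just above it.

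Col1a1 and Col3a1 are typical of fibroblasts, and in endothelial-like cells they lay near the level in neutrophil-like cells. Col1a1 was at 500, 458 and 1133 CPM and Col3a1 at 647, 511 and 1494 CPM in endothelial-like cells. Neutrophil-like cells gave 590, 904 and 1792 CPM for Col1a1 and 519, 558 and 1388 CPM for Col3a1. Endothelial Col1a1 was thus below the neutrophil level in every library, at 0.847, 0.507 and 0.632 of it, and endothelial Col3a1 was at 1.25, 0.916 and 1.08 of it. Macrophage or monocyte-like cells gave 276, 304 and 702 CPM for Col1a1, and T or NK-like cells 345, 454 and 910 CPM. Both lay below endothelial-like cells in every library. Per cell, endothelial-like cells held 5.87, 3.62 and 7.91 Col1a1 UMIs, against 1.22, 1.69 and 2.40 in neutrophil-like cells. How much of the endothelial level is background was not tested. Col1a1 in CO hydrogel over untreated was 2.27-fold in endothelial-like cells, 2.54-fold in macrophage or monocyte-like cells, 3.04-fold in neutrophil-like cells and 2.64-fold in T or NK-like cells. For this pair, 9 of 12 collagen genes measured in macrophage or monocyte-like cells were at least 2-fold higher and 0 lower. Of all genes, 3.74% were higher. Col5a2, Col6a1, Col6a2 and Col16a1 were 3.72, 2.51, 3.20 and 4.01-fold there, against 2.41, 2.50, 2.77 and 3.64-fold in endothelial-like cells. Col7a1 was 0.816-fold there against 4.79-fold. The minimum of UMIs bears on these too. Apart from Col7a1, these rises were thus not confined to endothelial-like cells.

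After thinning to 1000 UMIs, 26.8%, 33.4% and 56.3% of endothelial-like cells held a Col1a1 UMI, and 74.3%, 82.3% and 90.6% before. In neutrophil-like cells the thinned shares were 40.4%, 53.7% and 72.5%, and 62.4%, 73.7% and 82.0% before. The 10 fibroblast markers summed to 266, 208 and 673 CPM in endothelial-like and 433, 445 and 1136 CPM in neutrophil-like cells, again highest with CO hydrogel, the library with the largest share of fibroblast-like cells. The 12 mural markers in endothelial-like cells ran the same way, at 700, 784 and 1218 CPM, with Cnn1 at 0 in the untreated library and all detected in the gel libraries. The part of fibroblast or mural RNA in the endothelial differences was not tested. By contrast 94.6%, 90.0% and 88.6% of thinned endothelial-like cells held a Col4a1 UMI, against 6.84%, 11.2% and 14.3% of neutrophil-like cells.

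**Figure D5:**
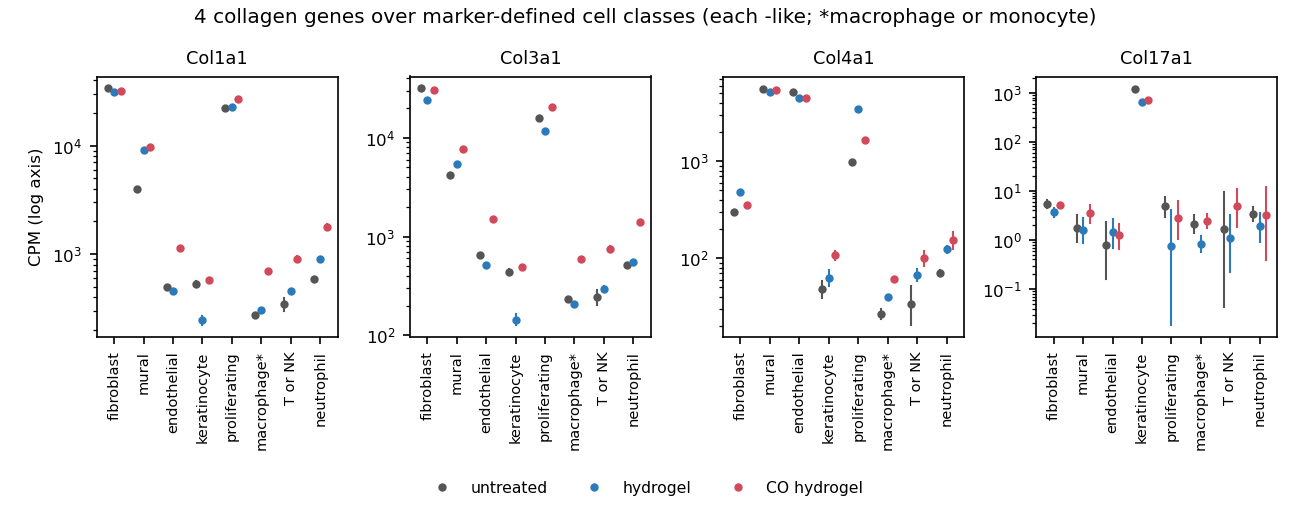
CPM (log axis, its range set per panel) of Col1a1, Col3a1, Col4a1 and Col17a1 in 8 cell classes, 1 point per library with exact 95% counting intervals. For Col1a1, endothelial-like points lie below the neutrophil-like points of the same library, while Col4a1 in mural-like and endothelial-like cells lies far above the other classes shown except proliferating-like cells in all 3 libraries.

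Keratinocyte-like cells numbered only 104, 106 and 268. Their Col17a1, which encodes the hemidesmosome protein BP180, was at 1181, 642 and 705 CPM, a log2 ratio of -0.88 (-0.98 to -0.78) for hydrogel and -0.74 (-0.83 to -0.66) for CO hydrogel over untreated. After thinning, 52.3%, 41.2% and 48.0% of these cells held a Col17a1 UMI (74.0%, 69.8% and 78.0% before), against 0.398%, 0.0737% and 0 of neutrophil-like cells. Col7a1 was at 110, 67.2 and 94.4 CPM and Col18a1 at 318, 158 and 240 CPM. Each of these 3 genes, picked after their values were seen, was highest in the untreated wound and lowest under hydrogel, but for Col7a1 the interval of CO hydrogel over untreated, -0.22 (-0.47 to 0.03), held 0. The neutrophil markers S100a8 and S100a9, which stressed keratinocytes also make, ran the opposite way in these cells, at 3932, 24659 and 14345 CPM in sum, while the other 9 neutrophil markers summed to 1496, 207 and 924 CPM, with Mmp8 at 0 in both gel libraries and Retnlg at 0 with CO hydrogel. Their part in the ratios was not tested. Col1a1 and Col3a1 in these cells lay below their neutrophil-like levels in every library, and Col12a1 was at 99.1, 75 and 126 CPM.

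In immune classes, Col1a1 and Col3a1 led among collagens, followed by Col4a1 or Col6a2, except in untreated macrophage or monocyte-like cells, where Col18a1 was next at 29.7 CPM. In neutrophil-like cells Col4a1 was at 70.2, 124 and 153 CPM, Col6a2 at 42.1, 72.3 and 120 CPM and Col12a1 at 22.3, 52.6 and 92.5 CPM, each highest with CO hydrogel. Col1a1 came to 1.22, 1.69 and 2.40 UMIs per neutrophil-like cell, 2.11, 2.50 and 3.79 per macrophage or monocyte-like cell and 1.83, 2.35 and 2.44 per T or NK-like cell. Collagens as a whole were 0.135%, 0.189% and 0.388% of neutrophil-like UMIs, 0.0650%, 0.0694% and 0.158% of macrophage or monocyte-like UMIs and 0.0721%, 0.0996% and 0.206% of T or NK-like UMIs.

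Chains that assemble into 1 molecule were read as ratios, in every class and library with at least 300 UMIs of the pair. Col4a1 exceeded Col4a2, its partner in the common type IV trimer, in all 18 such classes and libraries, by 10.4-fold to 25.8-fold with a median of 12.9, although the 2 genes share the 76-base interval printed above. For type V, Col5a1 over Col5a2 lay between 0.403 and 0.625 in 11 classes and libraries, and for type VI, Col6a1 over Col6a2 lay between 0.0848 and 0.327 in 16. Type VIII had the widest span, Col8a1 over Col8a2 at 8.42 to 190 in 6. For the 2 fibril types, Col1a1 over Col3a1 lay between 0.758 and 1.94 in 30, with Col1a1 higher in 26. The chain ratios of types IV, V and VI thus kept their direction across classes and wounds. How far 3' end annotation sets their size was not tested.

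Genes that fold, process, cross-link or bind collagen were read from lists in the same fibroblast-like cells. For CO hydrogel against hydrogel, 0 of 16 measured folding and modification genes, 0 of 6 propeptide processing genes, 0 of 4 crosslinking genes and 0 of 6 receptor genes were at least 2-fold different in either direction. Over all genes, 1.97% were higher and 1.75% lower. Against untreated, Itga11, the integrin alpha 11 subunit by which fibroblasts hold fibrillar collagen, was at 42.3, 94.7 and 104 CPM, with log2 ratios of 1.16 (1.05 to 1.27) for hydrogel and 1.30 (1.2 to 1.41) for CO hydrogel. It was the 1 receptor of 6 past 2-fold in each gel, where 4.85% of all genes were higher with hydrogel and 6.18% with CO hydrogel. With hydrogel, 1 of 16 folding genes, the prolyl hydroxylase subunit P4ha3, stood at 6.15 against 3.00 CPM, and 1 of 6 processing genes, the procollagen protease Adamts3, stood at 10.3 against 4.11 CPM. Counts of 1 gene in lists this short are too few to set apart from the share over all genes. Folding genes had a median log2 ratio of -0.12 for hydrogel and -0.14 for CO hydrogel over untreated, below the 0.14 of all genes.

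In mural-like cells the cross-linking enzyme Lox was the 1 of 3 measured crosslinking genes past 2-fold, at 12.7, 50.7 and 64.4 CPM, with log2 ratios of 2.0 (1.65 to 2.37) and 2.34 (1.99 to 2.71) over untreated, where 2.37% and 2.57% of all genes were higher. Its course beside mural Col1a1 was the same, lowest in the untreated wound. None of the 4 receptor genes measured there passed 2-fold in any pair, where at most 2.57% of all genes were higher and at most 0.897% lower. In endothelial-like cells, for CO hydrogel against untreated, 1 of 4 processing genes was at least 2-fold higher and 1 lower, 2 of 3 crosslinking genes and 1 of 2 receptor genes were higher, and 0 of 14 folding genes passed in either direction, where 5.56% of all genes were higher and 1.01% lower. Pcolce, whose product enhances procollagen processing, was at 62.4, 58.8 and 137.5 CPM, whereas the procollagen protease Tll1 was at 55.8, 44.6 and 25.7 CPM, a log2 ratio of -1.12 (-1.39 to -0.85). The cross-linking enzyme genes Loxl1 and Loxl2 were at 8.95, 7.89 and 20.5 CPM and at 26.1, 36.0 and 64.4 CPM, and the collagen receptor Ddr2 at 6.32, 12.5 and 14.5 CPM. Loxl1, Loxl2 and Ddr2 met the minimum of UMIs for CO hydrogel against untreated only through the CO hydrogel library. So did Loxl1 for CO hydrogel against hydrogel. A difference was thus built into their being measured, which bears on these counts. For CO hydrogel against hydrogel, 2 of 4 processing genes (Pcolce and Adamts2), 1 of 3 crosslinking genes (Loxl1) and 0 of 2 receptor genes were higher. None was lower in that pair, where 1.97% of all genes were higher and 0.73% lower. For hydrogel against untreated none passed 2-fold, where 2.53% of all genes were higher and 0.507% lower. Apart from Tll1, the genes named were highest with CO hydrogel, as Col1a1 and the fibroblast and mural markers were in these cells, and the part of those markers was not tested.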

How the data were processed

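Droplet single-cell RNA libraries (10x Genomics 3' kit, version 3.1) of 3 wounds were used, each with 1 library. The deposited matrices hold the authors' UMI counts per gene and barcode, whole numbers with no normalization. Per the submitters' processing notes Cell Ranger 7.0.0, Seurat 4.2.0, DESeq 1.38.0 and build rn6 were named, while per the file headers the matrices came from Cell Ranger 6.0.1. No cell type annotation of the authors was used here. The collagen genes and the lists were chosen with earlier results of these data known.

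A barcode was kept with 500 or more UMIs, 300 or more genes and no more than 20% of UMIs from mitochondrial genes. Scrublet scores ranked likely doublets, and the top 0.8% per 1000 barcodes were removed (9.57%, 11.5% and 11.9%), since Scrublet's own threshold called 0, 435 and 487 cells. With scanpy 1.11.5, 2000 variable genes without collagens, 30 principal components and 20 neighbours gave 29 clusters. Clusters were named from marker lists of 18 classes by a scoring rule set after the data were seen, and 4 stayed unnamed. UMIs were summed per class and library and given per 1000000 UMIs of the class (CPM), with exact Poisson intervals. Ratios have exact conditional binomial intervals, need at least 100 UMIs over both libraries, and were called at 2-fold. With 1 library per condition no test was run. The ratio code was tested on simulated counts.

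Collagen genes named with values were the 14 highest by mean CPM in fibroblast-like cells, the 5 highest in each other class with at least 100 cells per library, and those past 2-fold in fibroblast-like, mural-like or endothelial-like cells. Values of further genes in clusters, of Col4a3, Col11a1 and of the epidermal junction were chosen after they were seen. Alternatives covered cell filters, doublets, clustering, scaling (TMM from edgeR 4.0.16), minimum UMIs and cluster mix, and, added after seeing the data, cells without shared barcodes, single clusters and, for mural-like and endothelial-like cells, all of these. No column of per-sample values was left unused.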

Additional observations from a re-analysis of the deposited data

Results flagged for a closer look

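Col4a4 differed in direction between classes. Its log2 ratio of CO hydrogel over untreated was 1.94 in fibroblast-like, 1.21 in endothelial-like and -1.02 in mural-like cells, so that fibroblast-like minus mural-like came to 2.96 and mural-like minus endothelial-like to -2.23. With 1 library per condition this difference was not tested, the mural-like ratio was under 2-fold with no doublet removal (-0.97), the endothelial-like ratio was 0.21 with clusters weighted to one mix, and both Col4a4 levels outside mural-like cells were under 15 CPM.

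Cells of no named class, which enter no comparison, held collagens at 1.12% of their UMIs in the CO hydrogel library, against 0.0994% in the untreated one. Cluster 28, with 162 cells all from the CO hydrogel library, carried most of these UMIs, with collagens at 3.25% of its UMIs and Col1a1, Col3a1 and Col4a1 at 13084, 11320 and 3252 CPM. Its leading genes mixed keratinocyte (Krt15), endothelial (Cdh5, Erg) and muscle (Acta1, Myh11) genes, and a cluster from 1 library may be that library and not a type.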

How the results depend on the processing

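No collagen gene counted as 2-fold different changed sign under the alternatives for a whole class, but within single clusters 7 such ratios did: Col15a1 in cluster 9 and Col1a1 in mural-like cluster 26 (12 untreated cells) for hydrogel over untreated, at -0.13 and -0.11, and, for CO hydrogel over untreated in endothelial-like cluster 19 (21 untreated cells), Col4a4, Col5a1, Col5a2, Col6a1 and Col6a2, at -0.14, -0.14, -0.39, -0.31 and -0.06. Collagen made up 7.06%, 6.28% and 6.86% of fibroblast-like UMIs in the untreated, hydrogel and CO hydrogel wounds. The share was 7.04%, 6.24% and 6.82% with the stricter cell filter, 7.01%, 6.15% and 6.82% with no doublet removal, 6.99%, 6.08% and 6.57% as a mean over cells, 7.16%, 6.09% and 6.98% with clusters weighted to one mix, and 6.97% and 6.26% for the first 2 without shared barcodes. The untreated wound was highest and hydrogel lowest in each.

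For CO hydrogel against hydrogel, where 0 of 25 collagen genes passed 2-fold, the higher count was 2 with the stricter filter, with TMM factors and with no minimum of UMIs, and 1 with each library clustered by itself, without shared barcodes, as a mean over cells, without collagens in the denominator, with clusters weighted, in cluster 6 and in cluster 11. The lower count was 1 with collagens kept among the variable genes, as a mean over cells, in cluster 6 and in cluster 11, 2 with at least 20 UMIs and 3 with no minimum. The median, -0.10, was -0.17 as a mean over cells, -0.15 with at least 20 UMIs, 0.0025 with no minimum and 0.16 with clusters weighted.

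For CO hydrogel against untreated, 4 higher genes became 11 with each library by itself and with no minimum, and 1 in cluster 6. The 1 lower gene became 0 with each library by itself, where Col6a5 was under the minimum of UMIs and so not measured. The median, 0.53, was 0.96 with each library by itself, 0.26 as a mean over cells and 0.21 with clusters weighted. For hydrogel against untreated, 6 higher genes became 12 with each library by itself, 13 with no minimum, 3 with clusters weighted, in cluster 9 and in cluster 11, and 2 in cluster 6. The 1 lower gene became 0 with each library by itself, as a mean over cells and in cluster 9. With each library by itself, Col6a5 was again not measured. No share over all genes is given for these alternatives or single clusters, so their counts are not read as unusual. The median, 0.68, was 1.00 with each library by itself, 0.52 with TMM factors, 0.55 as a mean over cells, 0.76 with no minimum and 0.13 with clusters weighted. The cause was not tested, except that 276 of 289 untreated cluster 6 cells left the fibroblast-like class when each library was clustered by itself.

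No paired analysis was possible because each condition has 1 library and no test was run, and for the same reason no replicate could be left out. Depth limits the 14 genes under 100 UMIs, for which no difference could be read.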

Other observations

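Proliferating-like cells, 156, 72 and 150 cells, held much collagen for their number. Col1a1 was at 22092, 22602 and 27130 CPM, Col3a1 at 15775, 11670 and 20667 CPM and Col5a3 at 1823, 1541 and 1534 CPM in the untreated, hydrogel and CO hydrogel wounds. Col4a1 was at 980, 3424 and 1661 CPM and Col15a1 at 181, 967 and 727 CPM, both highest with hydrogel. The class joined cluster 12, whose second-best marker list was that of fibroblasts, with 110, 25 and 107 cells, and cluster 13, whose second-best was that of mural cells, with 46, 47 and 43. Cluster 13 was thus 65.3% of the class with hydrogel against 29.5% in the untreated and 28.7% in the CO hydrogel wound. Within cluster 13 Col4a1 was at 3933, 5325 and 5926 CPM and within cluster 12 at 244, 747 and 611 CPM, and Col15a1 was at 231, 1045 and 771 CPM and at 169, 858 and 716 CPM.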
